A study of Mus musculus with 24 samples.

Results

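AP-1 is a family of transcription factors that bind DNA as dimers, and 9 of its genes were described here in CD8 T cells: Fos, Fosb, Fosl2, Jun, Junb, Jund, Atf3, Batf and Maff. They were selected from 24421 gene symbols by family membership and by their levels across tissues and ages in these same libraries. Their differences between tissues, ages and genotypes are therefore given as values with errors and no test, and tests between these groups are given for other genes only. The cells (CD45+CD3+CD8+) had been sorted from blood or pancreas, the mice were KC or WT B6, and sequencing of the RNA gave 24 libraries. KC stands for a mouse model of pancreatic cancer with preinvasive lesions. The labels give neither the alleles nor the driver, and no treatment. KC pancreas had 12 libraries, 3 each at the ages of 4 and 13 weeks and 2 each at 9, 20 and 30 weeks. KC blood had 9 libraries, 3 at 13 weeks, 2 each at 4 and 30 weeks and 1 each at 9 and 20 weeks. WT pancreas had 1 library of 9 weeks and 1 of 30 weeks, and WT blood had 1 library of 30 weeks. The labels do not say whether a library came from 1 mouse or from pooled mice, so p-values measure the spread between libraries.

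Fos proteins cannot pair with each other and need a Jun protein, whereas Jun proteins also pair among themselves. In T cells, receptor signals run through MAP kinases to raise Fos and Jun within minutes, and the dimers bind beside NFAT at cytokine genes. Batf pairs with Jun proteins and binds together with Irf4, and Atf3 and Maff are stress-induced relatives. The early members of the family are also known to be induced while solid tissue is dissociated into single cells.

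Libraries held 6352070 to 16716169 reads counted in genes. The sorted identity was visible in every group, with 6 CD8 T cell markers (Cd3d, Cd3e, Cd3g, Cd8a, Cd8b1 and Ptprc) at 0.880% to 2.06% of the counts of each KC pancreas library and 0.914% to 1.74% of each KC blood library. Genes high in 1 library left low counts in other libraries, and by these traces the libraries fell into 2 sets of 12, which the labels do not name. The trace genes were detected in 92.4% of cases within a set and 47.7% across sets, at a median of 0.205% of the source level within a set. None of the 9 AP-1 genes was a trace gene. All KC pancreas libraries of 4 and 13 weeks were in the first set and all those of 9, 20 and 30 weeks in the second, so values within the sets are given where they bear on a result.

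The 9 genes lie on 7 chromosomes of the mouse genome (mm10; gene bounds from GENCODE M21). Among the Fos genes, Fos is at chr12:85473890-85477273, Fosb at chr7:19302696-19310051 and Fosl2 at chr5:32135801-32157842, each with 4 exons. Among the Jun genes, Jun is at chr4:95049034-95052222, Junb at chr8:84974484-84978718 and Jund at chr8:70698949-70700616, each with 1 exon. Atf3 is at chr1:191170296-191218039, Batf at chr12:85686669-85709087 and Maff at chr15:79346621-79359076. Jun, Junb, Jund and Atf3 overlap genes on the opposite strand (Junos, Prdx2, Gm11175 and Gm24748). Strand use in counting was not given in the sources used here, so reads of these overlaps cannot be told apart.

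The stretches before the start sites are shown because Fos, Fosb, Jun and Junb were high in many pancreas libraries, and Maff in 1, and because the choice of genes did not use their sequence. They are RefSeq promoter sequences of GRCm38.p6 (the mm10 assembly), 5′ to 3′ on the gene's strand, and end at the base before the start site or, for Fosb, 6 bases earlier, where the GENCODE exon begins. Positions below are counted back from the RefSeq start. Capitals mark a cyclic AMP response element (CRE, TGACGTCA), its half-site TGACG on either strand, or the TATA box letters TATAAA.
Fos (chr12:85473640-85473889, plus strand): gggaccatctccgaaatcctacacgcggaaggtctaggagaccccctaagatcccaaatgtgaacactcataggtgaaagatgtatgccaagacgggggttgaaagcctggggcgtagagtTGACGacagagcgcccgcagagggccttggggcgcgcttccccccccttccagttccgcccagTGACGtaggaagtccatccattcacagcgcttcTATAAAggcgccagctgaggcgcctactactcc
Fosb (chr7:19310052-19310295, minus strand): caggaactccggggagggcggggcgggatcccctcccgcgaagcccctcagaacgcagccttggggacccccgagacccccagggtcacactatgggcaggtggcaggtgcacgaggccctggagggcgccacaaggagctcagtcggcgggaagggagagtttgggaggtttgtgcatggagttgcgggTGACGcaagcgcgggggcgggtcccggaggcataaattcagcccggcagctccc
Jun (chr4:95052223-95052472, minus strand): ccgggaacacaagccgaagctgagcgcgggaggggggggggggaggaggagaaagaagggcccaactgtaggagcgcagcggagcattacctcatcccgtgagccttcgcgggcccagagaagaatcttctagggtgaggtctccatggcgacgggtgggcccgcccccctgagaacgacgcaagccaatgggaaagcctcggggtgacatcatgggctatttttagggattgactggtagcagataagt
Junb (chr8:84978749-84978998, minus strand): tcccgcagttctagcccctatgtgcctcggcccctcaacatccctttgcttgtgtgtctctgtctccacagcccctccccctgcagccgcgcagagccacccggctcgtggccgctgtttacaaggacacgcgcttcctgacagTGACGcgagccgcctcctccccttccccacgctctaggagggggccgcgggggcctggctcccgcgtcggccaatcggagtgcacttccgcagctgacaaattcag
Maff, second of 3 RefSeq starts (chr15:79347270-79347519, plus strand): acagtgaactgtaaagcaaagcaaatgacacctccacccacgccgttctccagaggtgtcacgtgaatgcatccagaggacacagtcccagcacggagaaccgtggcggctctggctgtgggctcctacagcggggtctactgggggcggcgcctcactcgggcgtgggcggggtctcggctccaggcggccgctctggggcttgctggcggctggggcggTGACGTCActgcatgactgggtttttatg

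All 9 genes matched the RefSeq table, with 11 start sites of 250 upstream bases each, and both strands were searched. The Fos window held TATAAA at 33 to 28 bases before the start and TGACG at 129 to 125 and 66 to 62 bases. The half-site lay 60 to 56 bases before the start of Fosb, 106 to 102 before that of Junb, 98 to 94 before that of Batf, 7 to 3 before that of Atf3 and 122 to 118 before the third start of Maff. The whole CRE was found 29 to 22 bases before the Maff start shown, and it contains the half-site on both strands. In all, 6 of the 9 genes had TGACG in at least 1 window, and 7 of the 11 windows held it, against 17.8% of 32851 mouse promoters of the same length. The windows of Jun, Fosl2 and Jund had none, with limits for Fosl2 and Jund given below. This half-site was added to the search after the windows had been seen. All promoters were not matched to the 11 windows in GC content, which was 46.4% (Batf) to 68.8% (Fosb) in the windows beside a median of 52.4%. The CRE itself occurs in 1.55% of all promoters and TATAAA in 12.4%. The AP-1 site TGANTCA, found in 6.75% of all promoters, and the CArG box, a serum response element found in 1.47%, were in none of the 11 windows. Sites more than 250 bases upstream, or with other letters or spacing, were not searched, so the genes may still have such elements. A match is a run of letters and not evidence of binding. For Jund and Junb the RefSeq start was not found in a GENCODE transcript. The Jund window ended at chr8:70697738, before the GENCODE gene start at 70698949. The windows of Fosl2 and of the third Maff start had 0 bases before an annotated exon. That of Atf3 had 243, so its half-site lay where an annotated exon had already begun. Presence or absence of a motif in these windows may therefore not describe the main promoter.

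Fos, an early response gene and classical partner of Jun, was near 0 in blood and high in most pancreas libraries. In KC blood it ran from 0.132 to 2.13 CPM (counts of a gene scaled to a common total of counts in genes) with a median of 0.593. In KC pancreas it ran from 0.517 to 84.0 CPM with a median of 32.3. All KC pancreas libraries but 1 (Sample_132P8, 13 weeks) lay above every KC blood library. WT libraries had the same order, with 31.9 CPM (9 weeks) and 38.3 CPM (30 weeks) in pancreas and 0.658 CPM in blood. Counts behind the KC blood values were 1 to 35 per library and resolve the blood level poorly.

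Fosb, a paralog of Fos that is also induced early, separated the tissues as cleanly but was uneven within the pancreas. KC blood held 0.731 to 2.64 CPM with a median of 2.14. In KC pancreas 5 libraries lay at 2.37 to 7.33 CPM and 7 at 44.4 to 310 CPM, with none between. The low and the high libraries occurred side by side at every age, for example 5.67 CPM in Sample_303P8 and 310 CPM in Sample_302P8, both of 30 weeks. WT pancreas showed both levels too, with 52.5 CPM at 9 weeks and 1.68 CPM at 30 weeks.

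Fosl2 (Fra-2), a Fos relative with slower kinetics, was spread most widely among the Fos genes in pancreas. Its KC pancreas values ran from 1.19 to 351 CPM with a median of 37.5, and its KC blood values from 1.13 to 22.0 CPM with a median of 1.95. Only 6 of the 12 KC pancreas libraries were above the highest blood library. The top values were 351 and 312 CPM, both at 4 weeks, followed by 221 CPM in Sample_302P8.

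**Figure D1:**
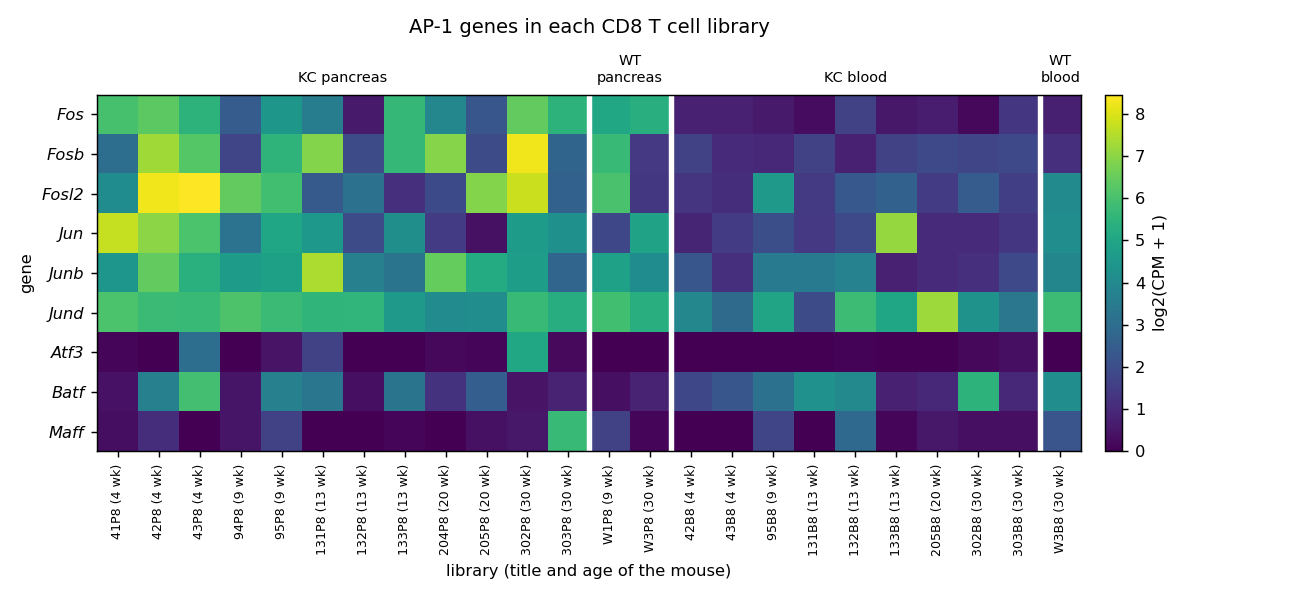
Levels of the 9 genes in each of the 24 libraries as log2(CPM + 1), with libraries ordered by group and age of the mouse and named by title. The Fos row separates pancreas from blood, Jund is present throughout, and Atf3 and Maff are high in single libraries.

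Jun, the best-known partner of Fos, was highest in the youngest pancreases. The 3 KC pancreas libraries of 4 weeks had 65.3, 127 and 207 CPM, and the 9 later ones 0.309 to 30.7 CPM, so the ages did not overlap. KC blood held 0.818 to 3.05 CPM in 8 libraries and 139 CPM in Sample_133B8 (13 weeks), which carried 91.1% of the summed Jun CPM of KC blood. Acinar markers of KC pancreas were also highest at 4 weeks, as given below, and all libraries of 4 weeks were in the first trace set.

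Junb, which can oppose Jun at some promoters, was moderately high across the pancreas. It ran from 5.83 to 171 CPM with a median of 26.0 in KC pancreas, and from 0.695 to 12.5 CPM with a median of 2.64 in KC blood. In KC pancreas 9 of 12 libraries were above every KC blood library. WT pancreas had 27.4 and 16.2 CPM and WT blood 13.9 CPM.

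Jund, the constitutive Jun gene, was the steadiest of the 9 in the pancreas. KC pancreas libraries held 16.1 to 68.1 CPM with a median of 49.6, a coefficient of variation of 39.8%. The median coefficient over 11056 genes in these libraries was 140%, and only 1.54% of genes had a smaller one than Jund. In KC blood the range was wider, from 2.85 to 147 CPM with a median of 18.7, and 4 of the 9 blood libraries lay below the lowest pancreas library. No pancreas library exceeded the highest blood library.

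Atf3, Batf and Maff showed their high values in few libraries. Atf3, a stress-induced repressor in many settings, was at 0 to 0.278 CPM in KC blood, at 0 in all 3 WT libraries and at most 0.366 CPM in 9 KC pancreas libraries. Sample_302P8 had 31.7 CPM, 75.2% of the KC pancreas sum, and Sample_43P8 and Sample_131P8 had 7.37 and 2.21 CPM. Batf, which cooperates with Irf4 in effector T cells, had a median of 3.05 CPM in KC pancreas and 3.81 CPM in KC blood, with single high libraries in each (59.8 CPM in Sample_43P8 and 42.8 CPM in Sample_302B8). Maff, a small Maf protein without an activation domain, had a median of 0.277 CPM in KC pancreas and 0.265 CPM in KC blood, and 51.6 CPM in Sample_303P8. That library held 91.3% of the Maff sum of KC pancreas, against a median share of the top library of 37.0% over all genes.

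**Figure D2:**
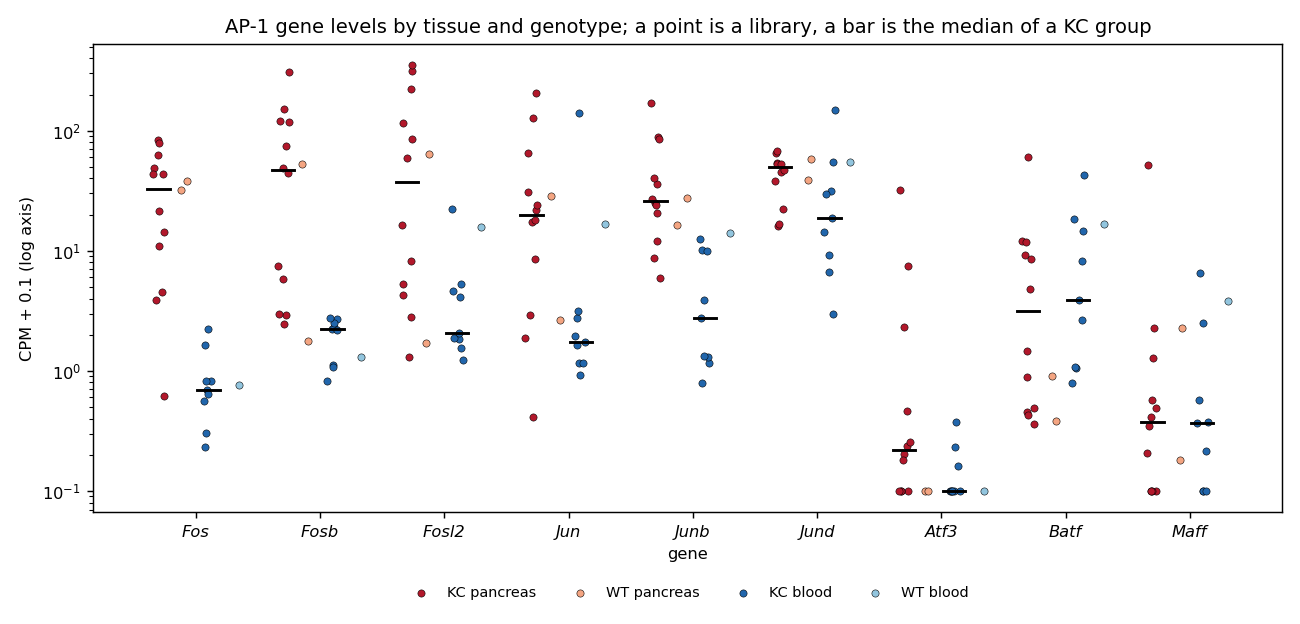
CPM + 0.1 on a log axis for each gene, with 1 point per library coloured by group and a bar at the median of each KC group. Fos and Fosb of KC pancreas lie above all of KC blood in 11 of 12 libraries, whereas Jund, Batf and Maff overlap.

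Between tissues of KC mice, with age as a factor, the log2 difference of pancreas minus blood was 5.50 ± 1.07 (SE) for Fos, 5.26 ± 1.0 for Fosb and 4.02 ± 1.11 for Fosl2. In the Jun genes it was 3.37 ± 0.93 for Junb, 2.25 ± 1.28 for Jun and 1.17 ± 0.82 for Jund. Atf3 had 5.74 ± 1.50, resting on 3 libraries, and Batf and Maff had -0.32 ± 1.32 and 0.17 ± 1.70. The median of the 9 was 3.37 beside -0.12 for all genes tested. The fit was edgeR's over 11059 genes. In bulk RNA, fewer cells that express a gene and less RNA per cell cannot be told apart.

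The difference was also present within each trace set for most members. Fos differed by 5.94 in the first set and by 5.45 in the second, Fosb by 4.62 and 5.54, Fosl2 by 3.82 and 4.57, and Junb by 2.88 and 3.51 (log2). Jun differed by 4.44 and 2.83, and Jund by 2.32 and 0.56. Leaving out Sample_133B8 moved the Jun difference from 2.25 to 3.59. Batf changed sign between the sets (0.14 and -1.82). In 9 KC pairs of pancreas and blood libraries with the same title number, Fosb was higher in pancreas in 9 pairs, Fos, Fosl2 and Junb in 8, Jun in 7, Jund in 6, Atf3 and Batf in 5, and Maff in 3.

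In WT mice 1 library per tissue at 30 weeks allowed values but no test. Pancreas held 480 counts of Fos and blood 11, a log2 ratio of 5.74 with a prior count of 1. Fosb had 21 and 20 counts, Junb 203 and 232, Jun 355 and 277, and Jund 482 and 914. Fosl2 (20 and 262 counts), Batf (10 and 278) and Maff (1 and 62) had fewer counts in pancreas, with log2 ratios of -3.23, -4.25 and -4.56, beside a median of -0.52 over genes with at least 10 counts. Fos was the 1 member of this WT pair with a log2 ratio above that of Jun, 0.77.

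Compared per kb of exon, which allows genes to be set against each other, Jund led the AP-1 pool in blood and shared it in the pancreas. Median CPM per kb in KC blood was 11.2 for Jund, 2.71 for Batf and 1.15 for Junb, and at most 0.510 for the other 6 genes. In KC pancreas the order of medians was Jund at 29.7, Fos at 13.7, Junb at 11.3, Fosb at 7.49, Jun at 6.21, Fosl2 at 3.88, Batf at 2.17, Maff at 0.107 and Atf3 at 0.0555 CPM per kb. The ranges over libraries overlapped between all neighbours in this order. Jund was the highest member in 6 of 9 KC blood libraries, in all 3 WT libraries and in 4 of 12 KC pancreas libraries, where Junb led 3, Jun 2, and Fos, Fosb and Batf 1 each. The Fos genes together (Fos, Fosb and Fosl2) made up 0.940% to 13.7% of the pool in KC blood (median 3.02%) and 4.24% to 62.5% in KC pancreas (median 30.3%). They made up 29.7% and 37.1% in WT pancreas and 3.52% in WT blood.

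**Figure D3:**
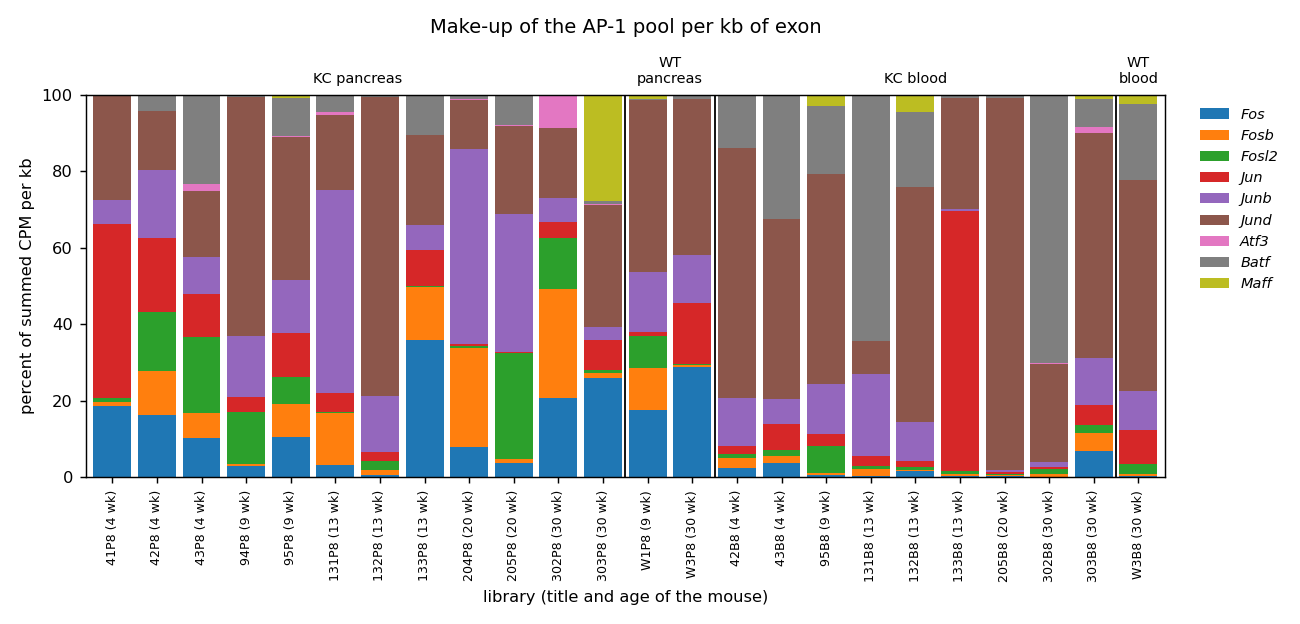
Share of each gene in the summed CPM per kb of the 9 genes, with 1 bar per library in the order of group and age. The Fos genes hold a median of 30.3% in KC pancreas and 3.02% in KC blood, where Jund, Batf or Jun is the largest part of each bar.

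Age was compared within each tissue as a slope in log2 per 10 weeks. The steepest slopes of the 9 genes in KC pancreas were 2.15 ± 0.69 for Maff and -1.92 ± 0.85 for Batf (SE). Batf had 11.7 CPM or more in 3 of the 5 libraries of 4 and 9 weeks, but 0.33 CPM in Sample_41P8 and 0.39 CPM in Sample_94P8. It ran from 0.258 to 9.07 CPM at 13 weeks and from 0.354 to 4.74 CPM at 20 and 30 weeks, so the ages overlapped. The Maff slope rested on Sample_303P8, without which it was -0.29.

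Jun had a slope of -0.99 ± 0.53, which was -2.73 in the first trace set alone, 0.22 in the second and 0.01 without the libraries of 4 weeks. Fosb and Fos had slopes of 0.51 ± 0.55 and 0.06 ± 0.51. A straight line describes Fos poorly, since its medians were 63.2 CPM at 4 weeks, 12.9 at 9, 10.9 at 13, 8.99 at 20 and 63.7 at 30 weeks. Atf3 had a slope of 1.01 ± 0.69, which was -1.72 without Sample_302P8. Fosl2, Junb and Jund had slopes of -0.31 to -0.23, but that of Fosl2 was -5.27 in the first set alone, 0.38 in the second and -1.47 without Sample_302P8. Since 4 and 13 weeks made up the first trace set and the other ages the second, age and set are partly confounded in the pancreas.

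In KC blood, Fos, Atf3 and Maff were too low to be fitted. The slopes of the other 6 genes ran from -1.96 ± 1.72 (Jun) to 0.42 ± 0.83 (Batf), with -0.06 ± 0.80 for Fosb and -0.99 ± 1.04 for Junb. The Jun slope was -0.49 without Sample_133B8, its 1 high blood library. The slopes of the tissues were compared by an interaction term. The widest differences of slope, pancreas minus blood, were 2.87 ± 1.93 for Maff and -2.34 ± 1.16 for Batf, and each rested on 1 library. Without Sample_303P8 the Maff difference was 0.42, and without Sample_302B8 that of Batf was -0.67.

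**Figure D4:**
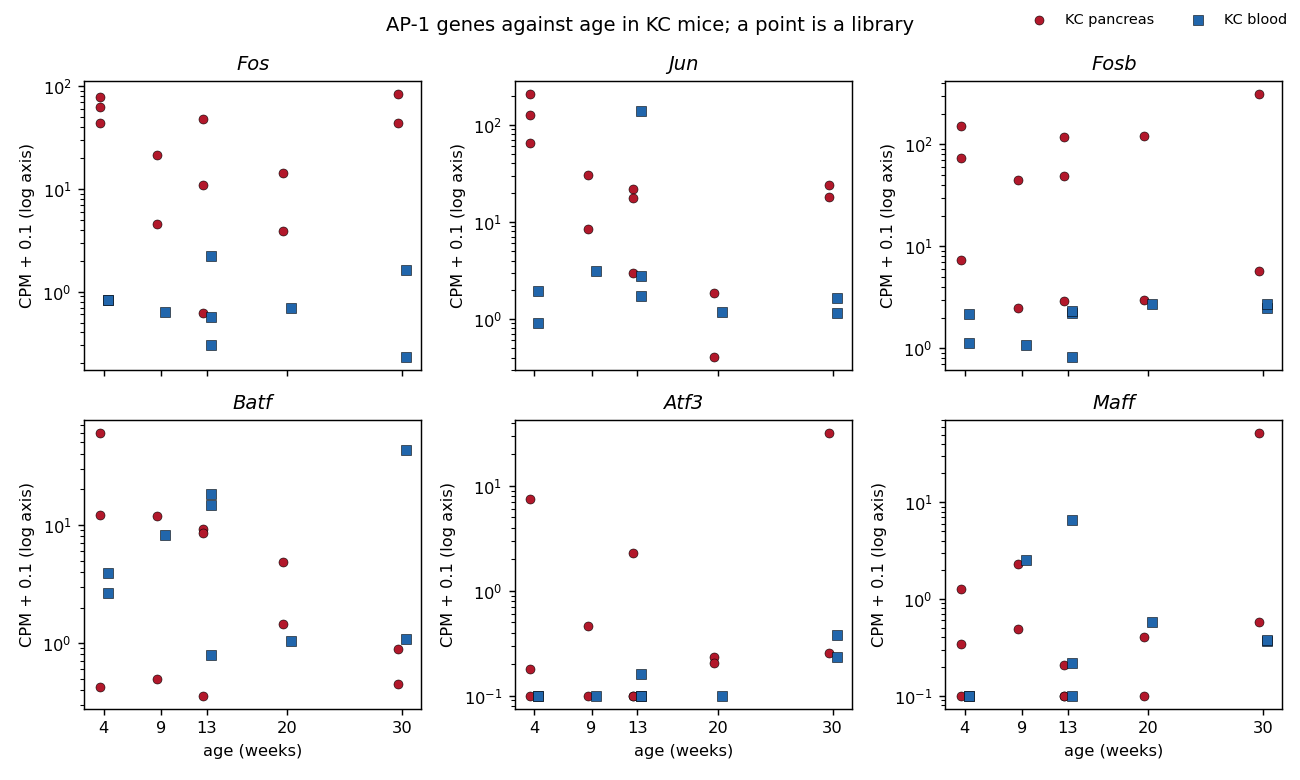
CPM + 0.1 on a log axis against age in weeks for 6 genes in KC pancreas (circles) and KC blood (squares), with 1 point per library and the tissues set slightly apart along the age axis. Jun of pancreas is highest at 4 weeks, Fos is high at 4 and 30 weeks, and Maff and Atf3 each have 1 high library at 30 weeks.

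KC and WT were compared in pancreas over 9 and 30 weeks and in blood at 30 weeks. Fos, at 4.47, 21.2, 43.5 and 84.0 CPM in the 4 KC libraries of these ages and 31.9 and 38.3 CPM in WT, had a log2 difference of -0.45 ± 1.62 with a wide 95% interval, from -3.62 to 2.73. Fosb and Fosl2 had differences of 2.47 ± 1.63 and 3.20 ± 1.61, and Jun and Junb 1.11 ± 1.73 and -0.10 ± 1.58. Atf3 had 0 counts in both WT pancreas libraries, which allows up to 0.285 and 0.239 CPM (3 counts, counting error only), and 0 to 31.7 CPM in the KC libraries, so no fold is given. Single libraries decided several of these differences. Without Sample_302P8 that of Fosb was 0.04 and that of Fosl2 0.95. Without Sample_W3P8, which left a comparison at 9 weeks alone, that of Fosb was -1.82 and that of Fosl2 0.05.

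In blood the single WT library allowed values but no test. Jun was at 1.06 and 1.53 CPM in the KC blood libraries of 30 weeks and 16.6 CPM in WT, Junb at 1.19 and 2.64 against 13.9 CPM, and Fosl2 at 4.50 and 1.95 against 15.7 CPM. Jund was at 18.7 and 9.18 CPM in KC and 54.7 CPM in WT, and Maff at 0.265 and 0.278 against 3.71 CPM. For these 5 genes the WT value lay above both KC values, an order that a single WT library can also reach by chance. The share of all genes with this order was not counted. Whether AP-1 genes differ from other genes in this respect was therefore not tested. Fos at 0.132 and 1.53 CPM and Batf at 42.8 and 0.974 CPM in KC lay on either side of WT (0.658 and 16.6 CPM), and Fosb at 2.38 and 2.64 CPM lay above it (1.20 CPM). The WT libraries all fell in the first trace set and the KC libraries of 9 and 30 weeks all in the second, so genotype and set cannot be told apart.

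Other genes of the pathway were tested with edgeR's quasi-likelihood test and called when the Benjamini-Hochberg adjusted p was below 0.05. Over all genes this called 10 of 11059 between tissues (0.0904%), while 1089 (9.85%) had an unadjusted p under 0.05 and DESeq2 called 480 (4.34%). Of the genes known to be induced by dissociation apart from AP-1 itself, 19 of 21 were tested, 14 had a positive difference and 3 were called, all higher in pancreas. The lists were chosen with earlier results of these data known, so this count is no independent support. Egr1, an early zinc finger factor, rose by 3.92 ± 0.69 (edgeR adjusted p = 0.00223). Nr4a1, an orphan nuclear receptor that reports T cell receptor signals, rose by 5.11 ± 1.03 (edgeR adjusted p = 0.0135), and Dusp1, a phosphatase of MAP kinases, by 2.92 ± 0.57 (edgeR adjusted p = 0.00771). These 3 are targets of receptor signals as well as of dissociation, and the median of the list was 0.78 beside -0.12 for all genes. In this list 8 genes had an unadjusted p under 0.05, and DESeq2 called 6. The part of dissociation in the AP-1 levels was not tested.

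No gene was called between tissues among 25 tested genes of the MAP kinase cascade (15 positive, median 0.20), 15 other bZIP factors (9 positive, median 0.25), 11 serum response and MEF2 inputs (7 positive, median 0.30), 8 T cell partners of AP-1 (4 positive, median 0.32) or 6 T cell genes with textbook AP-1 sites (5 positive, median 0.66). Across all genes 45.4% were positive. In each of these lists 0 to 3 genes had an unadjusted p under 0.05, and DESeq2 called 1 gene in each of the last 3. The values with the smallest adjusted p in each list included Irf4, the partner of Batf, at 2.65 ± 0.93, Ifng, the gene of interferon gamma, at 3.61 ± 1.38, and Map3k5, a stress kinase, at -2.91 ± 1.10 (edgeR adjusted p = 0.267, 0.322 and 0.317). In the other comparisons edgeR called 28 of 9555 genes with age in KC pancreas (0.293%), 0 of 9933 with age in KC blood (0%), 6 of 11059 for the difference of the trends (0.0543%) and 28 of 12374 for KC against WT in pancreas (0.226%). DESeq2 called 422, 317, 242 and 158 genes there, and 855, 870, 921 and 717 had an unadjusted p under 0.05 (8.95%, 8.76%, 8.33% and 5.79%). No gene of these 6 lists was called by edgeR in these 4 comparisons, 0 to 2 per list had an unadjusted p under 0.05, and DESeq2 called at most 1 per list.

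Markers of other cells were set beside the AP-1 levels. The 6 acinar markers (Cpa1, Cel, Ctrb1, Pnlip, Cela2a and Prss2) summed to 0% to 0.519% of counts in KC pancreas, 0% to 0.00491% in KC blood and 0.0731% and 0.206% in WT pancreas. Their shares were 0.0968%, 0.519% and 0.348% in the 3 KC libraries of 4 weeks, and at most 0.0462% at later ages. Jun was highest in the same 3 libraries, at 207, 127 and 65.3 CPM in this order. In WT pancreas Jun was at 2.56 CPM in Sample_W1P8, with an acinar share of 0.206%, and at 28.3 CPM in Sample_W3P8, with 0.0731%. Fibroblast markers (6 genes) were also highest at 4 weeks, at 0.0673% in Sample_43P8, the library with the highest Fosl2 and Batf, and 0.0142% in Sample_41P8, against 0% to 0.00151% in the other 10 KC pancreas libraries. Mast cell markers (3 genes, 0.0128%) and endothelial markers (3 genes, 0.0247%) of KC pancreas were highest in Sample_41P8, and Kdr of the latter was at 0 in every group. In 5 KC pancreas libraries, all of the second set, no acinar marker had a count, and Fos was at 3.81 to 84.0 CPM there, above every blood library. Sample_302P8, with the highest Fos, Fosb and Atf3, was among these 5, and its macrophage markers (6 genes) stood at 0.0162%, the highest of KC pancreas. Sample_132P8 had a nearly equal macrophage share of 0.0153%, with the lowest Fos of KC pancreas (0.517 CPM) and Atf3 at 0. Macrophage markers ran from 0.000166% to 0.0162% in KC pancreas and from 0.000193% to 0.0322% in KC blood, with C1qa at 0 in all KC blood libraries. CD4 T cell markers (Cd4 and Foxp3) stood at 0.00188% to 0.00533% and NK cell markers (Ncr1 and Klrb1c) at 0% to 0.00288% in KC pancreas. The part of other cells in the AP-1 levels was not tested.

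Over the 12 KC pancreas libraries the summed CPM of the 9 genes, 73.1 to 819 with a median of 247, was related to 4 other measures by permutation tests (two-sided, adjusted over the 4). The acinar and macrophage shares entered as log2 of the percent plus 0.001, an offset that affects r where a share is 0. The Rn45s share and the counts in genes entered without logs. Pearson's r was 0.38 with the acinar share (rho 0.319, p = 0.223 and 0.310, adjusted 0.298 and 0.330), and -0.20 without the 2 libraries farthest from the median. It was 0.32 (rho 0.308) with the macrophage share, 0.48 (rho 0.378) with the share of the ribosomal transcript Rn45s and 0.40 (rho 0.413) with the counts in genes. None passed (permutation, smallest raw p = 0.117 and adjusted p = 0.298). The Rn45s relation rested on the 2 farthest libraries, without which r was 0.05.

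The 9 genes varied among themselves in KC pancreas with little common order. Of 36 pairs, 27 had a positive Pearson r of log2(CPM + 1), with a median of 0.22, and none passed after adjustment over the 36 (permutation, two-sided). Fos and Jun, which form the classical heterodimer, had the highest r, 0.756 (rho 0.741, permutation p = 0.00424 and 0.00763, adjusted 0.153 and 0.275), and 0.633 without the 2 farthest libraries. After subtracting the mean of each age, r of Fos and Jun was 0.838. No p-value is given for it, since residuals that share an age mean are not independent, whereas a permutation treats them as such. Jun and Jund had r = 0.689 (rho 0.657, permutation p = 0.0130 and 0.0237, adjusted 0.234 and 0.284), but -0.27 after subtracting the age means. Fos and Fosb had r = 0.603 (rho 0.671, permutation p = 0.0391 and 0.0208, adjusted 0.352 and 0.284). Fos and Junb had r near 0, and Junb and Maff had the lowest, -0.47.

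**Figure D5:**
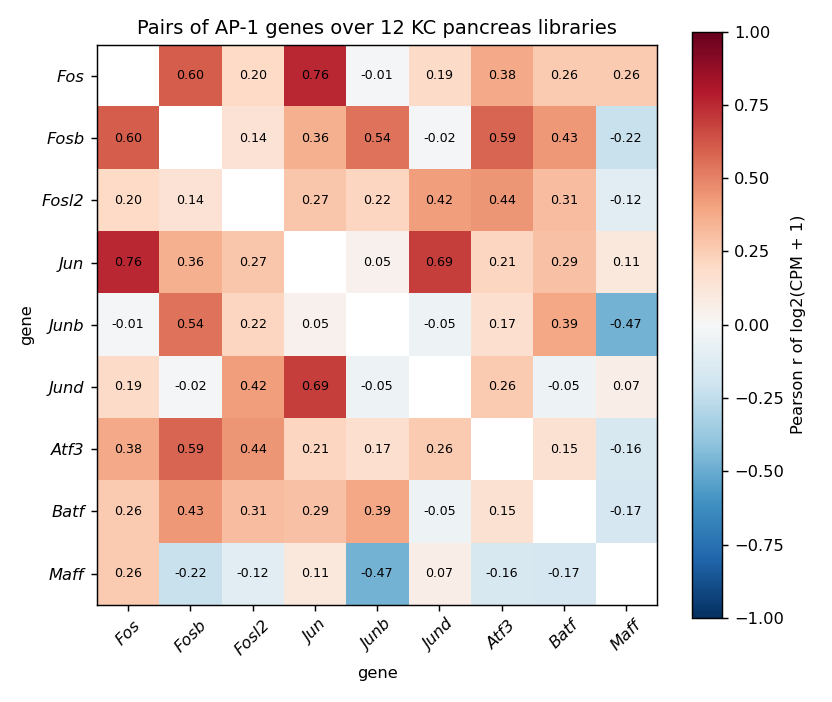
Pearson r of log2(CPM + 1) for each of the 36 pairs of genes over 12 KC pancreas libraries, from -1 (blue) to 1 (red). Fos with Jun (0.76) and Jun with Jund (0.69) are the highest, and none passed after adjustment.

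Genes with the pattern most like the mean of the 9 z-scored members over the 21 KC libraries were ranked by Spearman's rho, a description with no test, since the tissue difference enters it and the libraries share their depth and sets. Among 11059 genes the 8 nearest outside the family were Tnfaip3 (rho 0.875), Casp2 (0.843), Nr4a3 (0.829), Sik1 (0.825), Med12 (0.817), Phactr2 (0.810), Csrnp1 (0.787) and Rgs2 (0.778). Within the 12 pancreas libraries their rho was 0.357 (Rgs2) to 0.853 (Med12). Tnfaip3, the gene of the NF-kappaB inhibitor A20, had a median of 342 CPM in KC pancreas and 66.2 CPM in KC blood. Nr4a3, a relative of Nr4a1, had 78.7 and 5.43 CPM, and Sik1, a salt-inducible kinase gene, 38.6 and 3.62 CPM. Of the members themselves, which are part of the mean, Fos ranked 6, Jun 21, Fosb 23, Junb 33, Fosl2 37, Jund 128, Atf3 160, Maff 1646 and Batf 4254.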

How the data were processed

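RNA of sorted CD8 T cells was measured in 24 libraries. The authors deposited raw read counts per gene symbol with no normalisation, for 24421 genes; 5 further lines that tally unassigned reads were left out. TopHat, SAMtools, HTSeq, DESeq and mm10 are named, without versions or settings, per the submitters' processing notes. Of the tallied reads, 11.7% to 32.5% per library were assigned to genes.

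Groups and ages came from the labels. CPM used the counts in genes as library size. The two-sided robust quasi-likelihood F-test of edgeR 4.0.16 (R 4.3.3) was used after TMM scaling and filterByExpr at a minimum count of 10, with Benjamini-Hochberg adjusted p-values over all genes tested and a threshold of 0.05. The SE is the absolute log2 value over the square root of F. DESeq2 1.42.0 was an alternative. KC against WT was fitted in 14 pancreas and 10 blood libraries with 1 coefficient per genotype and age. The single WT blood library was thereby assumed to vary like the others. Correlations used log2(CPM + 1) and 100000 permutations (SciPy 1.17.1). Intervals and floors of single counts are exact Poisson at 95%, or 3 counts, and cover counting error only.

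The trace sets come from 95 genes with at least 100 CPM in 1 of 14 source libraries and at most 5% of that level elsewhere, and were derived after the data were seen. The members and the gene lists were chosen with earlier results of these data known, so members are given with no p-value between groups or ages. All 9 members are named. From each other list the called genes and up to 2 tested genes with the smallest adjusted p could be named, and the 8 genes most like the members by Spearman's rho. The edgeR fits were also run on simulated counts, in which no gene varied more between libraries than the median gene. That run therefore does not measure how the fits perform on these libraries. Protein sequences were not used here. Alternatives were other scalings, filters and tools, libraries, ages or sets left out, set terms and title numbers as blocks.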

Additional observations from a re-analysis of the deposited data

Results flagged for a closer look

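Groups of 4 to 10 libraries were searched for a library far from the others, which KC blood met with 9 and KC pancreas with 12 did not, by the gap to its nearest neighbour over the range of the group, with a 95% limit of 0.493. For 6 of the 9 genes 1 blood library stood apart, beside 37.6% of 11058 genes by the same search. Chance gives about 1 in 20 for values without skew, and CPM values are skewed. Jun was 139 CPM in Sample_133B8 (13 weeks), with a gap of 0.984 of the range. Fosl2 was 22.0 CPM in Sample_95B8 (9 weeks, 0.805), the library with the highest macrophage share of KC blood (0.0322%). Jund was 147 CPM in Sample_205B8 (20 weeks, 0.644), and Maff was 6.39 CPM in Sample_132B8 (13 weeks, 0.622). Batf was 42.8 CPM in Sample_302B8 (30 weeks, 0.584). Atf3 was 0.278 CPM in Sample_303B8 (30 weeks, 0.524), a level of 2 counts. Each gene stood apart in a different library.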

How the results depend on the processing

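Fos, Fosb, Fosl2, Jun, Junb and Jund were higher in pancreas than in blood of KC mice under all 32 settings. Atf3 was higher in the 26 settings that could be fitted for it. It could not be fitted without Sample_131P8, Sample_302P8 or Sample_43P8, the libraries that held most of its counts. Nor could it be fitted without age, without the libraries of 4 weeks or in the second set alone. Its constant sign therefore does not show that the difference holds without those libraries. Batf and Maff had no stable sign between tissues. Batf was 0.50 with the title number as a replicate block, 0.0067 without age, 0.14 in the first set alone and -0.79 to 0.45 on leaving out each library. Maff was -0.91 without the libraries of 4 weeks and -0.54 to 1.65 on leaving out each library. The tissue contrast called 10 genes, but 34 without a filter, 480 with DESeq2, 65 without age, 4 without the libraries of 4 weeks, 6 in the first set alone, 2 in the second alone and 6 to 21 on leaving out each library (6 without Sample_302P8, 21 without Sample_131B8).

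In KC pancreas 28 genes changed with age, but 686 without a filter, 422 with DESeq2, 18 with log2 of age, 0 with the set as a term, in either set alone or without the libraries of 4 weeks, and 10 to 31 on leaving out each library. Slopes turned in sign for Fos (-0.76 in the first set, -0.094 with log2 of age), Fosl2 (0.38 in the second set, 0.74 without 4 weeks), Jun (0.22 in the second set, 0.0071 without 4 weeks), Junb (0.22 with the set as a term, 0.98 in the first set) and Jund (0.35 in the first set). On leaving out each library they ran from -0.32 to 0.20 (Fos), -0.43 to 0.81 (Fosb), -1.47 to 0.031 (Fosl2) and -0.48 to 0.15 (Junb). For Atf3 they ran from -1.72 to 1.16 and for Maff from -0.29 to 2.32, in 10 of 12 fits each. Atf3 could not be fitted without Sample_131P8 or Sample_43P8, nor Maff without Sample_42P8 or Sample_95P8. Sample_302P8 turned Fos, Fosb and Atf3, Sample_43P8 Fosl2, and Sample_303P8 Junb and Maff.

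In KC blood 0 genes were called, but 102 without a filter, 317 with DESeq2, 16 with log2 of age and 0 to 12 on leaving out each library. The Fosb slope was 0.61 with the set as a term, 0.042 without 4 weeks and -0.16 to 0.14 on leaving out each library. That of Jun was 0.70 with log2 of age, and on leaving out each library it ran from -2.47 to -0.49, and that of Batf from -1.23 to 0.86. The difference of the trends called 6 genes, but 242 with DESeq2, 1 with the set as a term, 0 with RLE scaling, log2 of age or the replicate block, and 0 to 13 on leaving out each library. On leaving out each library the Maff difference ran from 0.42 to 3.31 and that of Batf from -2.73 to -0.67. KC against WT called 28 genes in pancreas, but 158 with DESeq2 and 4 to 29 on leaving out each library, and 0 of 12496 (0%) in blood, where 1 WT library was assumed to vary like the others and 354 genes had an unadjusted p under 0.05, but 11 with DESeq2 and 0 to 2 on leaving out each library. In pancreas this range was -1.82 to 0.93 for Fos, -1.82 to 6.76 for Fosb and 0.050 to 6.35 for Fosl2. It was -0.24 to 2.45 for Jun and -0.83 to 0.25 for Junb. With only 9 and 30 weeks the difference was 0.20 for Fosb and 1.91 for Fosl2. Leaving out a WT library turned Fos, Fosb and Jun in sign. Those fits compared 1 age alone, 9 or 30 weeks, so library and age cannot be told apart in them. The blood fit without the WT library could not be made.

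For 7 KC pairs with the same title number, r of the deviations of both libraries ran from -0.0546 to 0.0154. Every pancreas library of these pairs had a higher r with another blood library than with that of its own number. The pairs of 30 weeks, an age with 2 libraries per tissue, had the same r and are not separate values. Blood libraries of 13 weeks came from both trace sets, and pancreas libraries of 13 weeks from the first alone. The check therefore cannot decide whether a title number marks libraries of the same mouse. The replicate block called 14 genes between tissues, beside 8 in the same libraries without it (a fit added after the data were seen). By Pearson's r with age means subtracted, 2 of 36 pairs of members passed instead of 0. They were Fos with Jun, and Atf3 with Maff, the latter negative. The permutation treated residuals that share an age mean as independent, so this count cannot be read as a test. The r of Jun and Jund was then -0.27. The cause of these changes was not tested. Low counts limit Fos, Atf3 and Maff in blood.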
